A study of Mus musculus with 6 samples.

Results

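MHC class I presentation genes in activated mouse B cells were examined through 8 genes, H2-K1, H2-D1, B2m, Tap1, Tap2, Tapbp, Nlrc5 and Erap1, taken from the gene table by symbol. All 8 were found among its 55421 genes, and all 8 were among the 17640 genes expressed highly enough to be tested. The RNA-seq libraries came from the spleen, as B cells from WT mice (3 libraries) and from mice lacking hnRNPL (3 libraries), activated ex vivo for 24 h with LPS at 5 μg/ml and IL-4 at 5 ng/ml. hnRNPL is an RNA-binding protein of the heterogeneous nuclear ribonucleoprotein family that acts in pre-mRNA splicing, and the study asked how its loss changes the transcriptome of B cells. The WT animals carried CD21-cre and the Rosa mT/mG reporter, and the hnRNPL-deficient animals carried these together with 2 floxed Hnrnpl alleles (Hnrnpl F/F). All 6 samples therefore expressed the Cre. CD21-cre deletes mostly in peripheral B cells, and GFP+ cells, in which the Cre had recombined the reporter, were sorted before RNA was taken. By the methods of the study, its mice had a C57BL6/J background, were of either sex and were older than 6 weeks. The labels do not say which animal gave which replicate.

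Class I molecules carry short peptides from inside the cell to its surface, where CD8 T cells read them. The peptides are cut by the proteasome, pumped into the endoplasmic reticulum by the TAP transporter, trimmed there by ERAP1, and loaded onto a heavy chain paired with β2-microglobulin while tapasin holds the empty molecule next to TAP. NLRC5 is the transactivator that drives class I genes from their promoters, as CIITA does for class II genes, and B cells present antigen through both.

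The promoters of the genes that the values below turn on are printed here so that their shared elements can be seen. RefSeq (GRCm38.p6) gave a promoter window, 250 bases before and 50 bases after the transcript start, for 6 of the 8 genes, and none for Tap2 and Nlrc5. Those of H2-K1, H2-D1 and B2m are shown with that of H2-Q7, the heavy chain gene that fell most. Capitals mark matches on either strand to 4 motifs, namely GAAANNGAAA (a repeat of the interferon-response type), GGGGATTCC (a kappa B type site), CCAAT, and TGACG (a core of the cyclic AMP response element). All are written 5′ to 3′ on the strand of the gene.
H2-K1, chr17:34000298-34000597, minus strand: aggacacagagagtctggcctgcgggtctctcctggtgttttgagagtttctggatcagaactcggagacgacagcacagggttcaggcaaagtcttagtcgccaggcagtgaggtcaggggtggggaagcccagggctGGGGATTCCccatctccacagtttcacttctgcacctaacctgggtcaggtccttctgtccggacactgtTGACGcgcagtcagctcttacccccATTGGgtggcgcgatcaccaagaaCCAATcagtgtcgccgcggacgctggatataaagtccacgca
H2-D1, chr17:35262844-35263143, plus strand: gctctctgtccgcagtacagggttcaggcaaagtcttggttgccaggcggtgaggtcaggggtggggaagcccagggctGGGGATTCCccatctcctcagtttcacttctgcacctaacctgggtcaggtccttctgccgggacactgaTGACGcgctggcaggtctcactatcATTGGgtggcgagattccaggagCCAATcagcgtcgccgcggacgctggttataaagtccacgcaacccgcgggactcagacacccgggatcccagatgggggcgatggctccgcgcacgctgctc
H2-Q7, chr17:35438905-35439204, plus strand: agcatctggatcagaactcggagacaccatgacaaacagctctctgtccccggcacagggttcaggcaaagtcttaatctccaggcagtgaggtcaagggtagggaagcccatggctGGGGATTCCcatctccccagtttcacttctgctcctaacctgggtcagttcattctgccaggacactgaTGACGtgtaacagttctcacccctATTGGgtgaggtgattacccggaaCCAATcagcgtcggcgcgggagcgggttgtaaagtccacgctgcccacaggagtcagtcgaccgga
B2m, chr2:122147437-122147736, plus strand: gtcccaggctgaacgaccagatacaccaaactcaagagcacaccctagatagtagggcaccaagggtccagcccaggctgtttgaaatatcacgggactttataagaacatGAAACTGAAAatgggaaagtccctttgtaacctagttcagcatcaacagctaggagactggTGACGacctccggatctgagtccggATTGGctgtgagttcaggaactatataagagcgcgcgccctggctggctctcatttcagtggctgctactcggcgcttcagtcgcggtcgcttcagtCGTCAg

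The 3 heavy chain windows printed here held the same elements in the same order. These were GGGGATTCC, then TGACG, then CCAAT once on the opposite strand (ATTGG) and once on the strand of the gene. Another, overlapping RefSeq window of H2-K1 held the same matches. The kappa B type motif was rare, with a match in 82 of 32851 promoter windows of this length (0.250%). It was also found in the window of H2-Q6, which held 2 CCAAT matches but no TGACG. It was not found in those of H2-Q4, H2-T22 and H2-Q10, which were likewise called lower, and that of H2-Q10 held none of the 4 motifs. B2m lacked it and held the interferon-response type repeat instead, which was present in 3.44% of all windows. Among others, the windows of Erap1 and of the heavy chain genes H2-T22, called lower, and H2-T23, not called, held this repeat too. The short motifs were common, with CCAAT in 37.4% and TGACG in 20.8% of windows. For H2-D1 the RefSeq start lies inside the gene as the GENCODE annotation draws it. These are matches of letters only, and no binding was measured.

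The libraries were first checked against their labels. Each library held between 40395186 and 75180749 reads on genes, and the shallowest was hnRNPL-deficient replicate 3. Hnrnpl itself stood at 24174 to 25580 normalized counts in WT libraries, and fell to between 1297 and 2178 in those lacking hnRNPL. A normalized count is the number of reads on a gene divided by a size factor that evens out library depth. The B cell genes Cd79a, Cd79b, Ms4a1, Cd22 and Pax5 were all strongly expressed, with 15004 to 204678 normalized counts in every library. Of 6 T cell genes only Trac reached the mean of 10 normalized counts set for testing, and the 6 together gave 19.7 to 27.7 in WT and 28.3 to 38.4 in hnRNPL-deficient libraries. Lyz2, Cd14, S100a8, Itgax, Siglech, Clec9a and Ncr1, which mark myeloid, dendritic and NK cells, stood between 0 and 2.02 in every library. Flt3 and Zbtb46, which also mark dendritic cells, were present at 393 to 514 and 220 to 288, and the 6 dendritic cell genes together gave 648 to 787 in WT and 637 to 685 in hnRNPL-deficient libraries. The sum of the 6 myeloid genes nevertheless rose from 260 to 331 in WT to 1239 to 1382 in hnRNPL-deficient libraries, almost wholly through Adgre1, which encodes F4/80. Low-level markers moved as well, with Xcr1, Prf1 and Hbb-bt called higher and Jchain lower, and the summed levels of the NK and erythroid lists went from at most 37.1 in WT to 46.4 to 85.6 in hnRNPL-deficient libraries. The part of these genes in the results was not tested.

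The replicate 1 libraries of both genotypes differed from the others, in the MHC region and outside it. Of 17640 tested genes, 9 were at least 2-fold higher in both replicate 1 libraries than in any of the other 4, and 7 of these 9 lie between positions 33915899 and 37274484 of chromosome 17, which holds 145 tested genes. Among them, H2-Ea-ps stood at 574 and 816 normalized counts in the WT and hnRNPL-deficient replicate 1 libraries and at 0.765 to 8.22 in the others. H2-Q2, a class I heavy chain gene, stood at 146 and 94.7 against 0 to 8.22, and H2-Q1 at 161 and 119 against 23.3 to 39.0. The class II gene H2-Eb1 was low in the same libraries, at 14409 and 13892 against 22422 to 31802. The same search gave no gene for the replicate 2 libraries and 1 gene, outside the region, for the replicate 3 libraries. In the other direction, 32 genes were at least 2-fold lower in both replicate 1 libraries than in the other 4, as were 14 genes for replicate 2 and 2 for replicate 3, none of them in the region. The cause was not tested, and since both genotypes had such a library, each value below is also given without both of them where that changes its call.

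**Figure D1:**
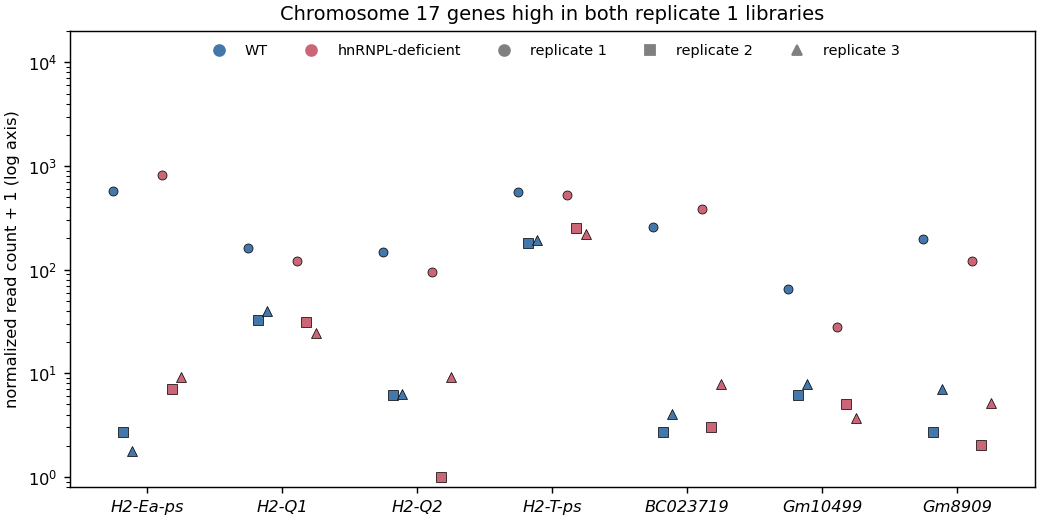
Normalized read count plus 1, on a log axis, of the 7 chromosome 17 genes that were at least 2-fold higher in both replicate 1 libraries than in the other 4. Each point is a library, with WT in blue and hnRNPL-deficient in red, and circles, squares and triangles for replicates 1, 2 and 3; for each gene the 2 circles lie above all other points, widest apart for H2-Ea-ps at 574 and 816 against 0.765 to 8.22.

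All 8 genes had a lower mean in hnRNPL-deficient than in WT B cells, as 52.7% of all tested genes did. The classical heavy chain H2-K1 and the light chain B2m fell furthest among those of the 8 that passed the test. The 8 log2 fold changes ran from -0.82 to -0.18, with a median of -0.42, while the median over all tested genes was -0.03. A gene was called changed when limma, applied to log2(normalized count + 1), gave a p under 0.1 after Benjamini-Hochberg adjustment together with at least a 1.5-fold change, the thresholds of the study. Under this rule 2 of the 8, H2-K1 and B2m, were called lower and none higher, where 4.08% of all tested genes were called lower and 7.28% higher. Tapbp also passed the p threshold at a smaller fold, which made 3 of 8 where 7.97% of all genes passed it downward. The same 3 genes were the ones for which every hnRNPL-deficient library lay below every WT library, as 16.3% of all tested genes did. These are bulk samples, in which fewer cells of a type and less RNA per cell cannot be told apart.

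**Figure D2:**
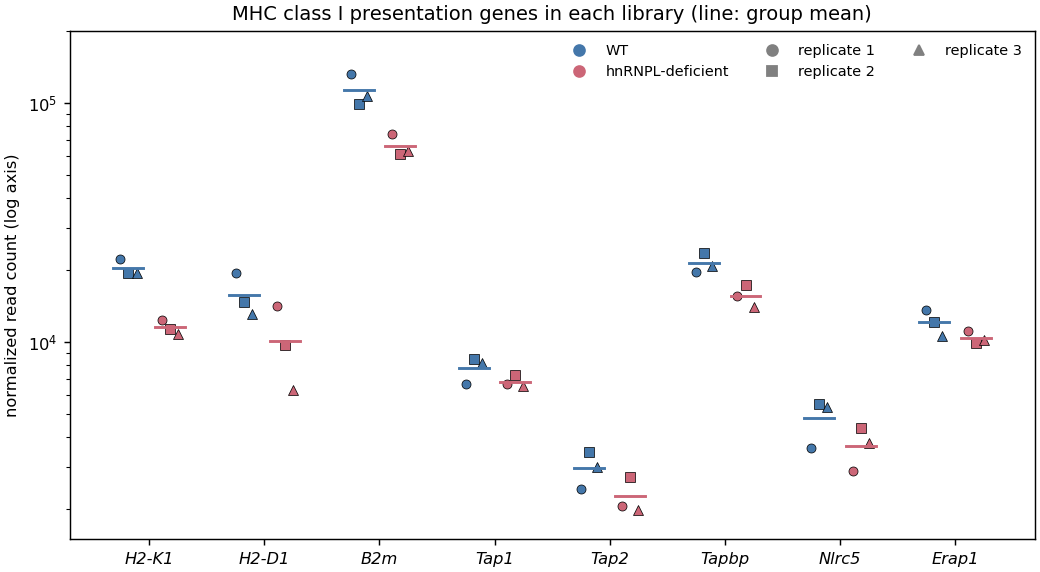
Normalized read count, on a log axis, of the 8 genes in each library. Points are libraries, with WT in blue, hnRNPL-deficient in red and a symbol for each replicate number, and short lines are group means; the groups separate for H2-K1, B2m and Tapbp and overlap for the other 5.

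H2-K1 encodes the classical heavy chain H-2K, one of the molecules that present peptides to CD8 T cells. It lies at chr17:33996017-34000347 on the minus strand. Its WT libraries held 22300, 19450 and 19422 normalized counts, and its hnRNPL-deficient libraries held 12391, 11384 and 10790. The highest hnRNPL-deficient library thus lay well below the lowest WT library, and replicate 1 was the highest of each group. The mean fell from 20391 ± 1654 to 11521 ± 809 (SD, n = 3 each), which is 43.5% below WT. The log2 fold change was -0.82 with a standard error of 0.10 and a 95% interval of -1.06 to -0.59, and limma gave an adjusted p of 0.00243. The call held without both replicate 1 libraries, at a log2 fold change of -0.81.

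H2-D1 encodes the other classical heavy chain of this strain, H-2D, and lies at chr17:35262730-35267499 on the plus strand. Its values were the most scattered of the 8 genes. WT libraries held 19521, 14698 and 13161 normalized counts, and hnRNPL-deficient libraries held 14152, 9705 and 6324. Replicate 1 was highest and replicate 3 lowest in both genotypes, so that the hnRNPL-deficient replicate 1 library lay above the WT replicate 3 library. The means were 15793 ± 3318 and 10060 ± 3926 (SD, n = 3 each), 36.3% apart, with a log2 difference of -0.71, a standard error of 0.27 and a 95% interval of -1.32 to -0.09. The adjusted p from limma was 0.133, and H2-D1 was not called. Without both replicate 1 libraries the difference was -0.83 with an adjusted p of 0.0806 from limma, past the thresholds, and without hnRNPL-deficient replicate 1 alone it was -0.99 with an adjusted p of 0.0418 from limma. Leaving out hnRNPL-deficient replicate 3 brought it to -0.41, so the size of the H2-D1 difference turned on single libraries.

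B2m encodes β2-microglobulin, the invariant light chain without which heavy chains do not reach the surface in stable form, and lies outside the MHC at chr2:122147686-122153083. The WT libraries held 133071, 99091 and 107314 normalized counts, and the hnRNPL-deficient libraries held 74108, 61013 and 63264. Every hnRNPL-deficient library was below every WT library, and replicate 1 was again the highest in both genotypes. The mean went from 113159 ± 17728 to 66128 ± 7002 (SD, n = 3 each), 41.6% below WT. The log2 fold change was -0.77 with a standard error of 0.14, a 95% interval of -1.10 to -0.44 and an adjusted p from limma of 0.0129. B2m was the only one of the 3 falling genes outside chromosome 17. When the libraries were forced to one distribution of values by quantile normalization, its log2 fold change was -0.57, just under 1.5-fold.

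The ratio of the classical heavy chains to the light chain overlapped between the genotypes. The sum of H2-K1 and H2-D1 was 0.314, 0.345 and 0.304 of B2m in WT libraries, against 0.358, 0.346 and 0.271 without hnRNPL. These ratios do not depend on library scaling. Their means were 0.321 ± 0.021 and 0.325 ± 0.047 (SD, n = 3 each), and the log2 difference of 0.01 had p = 0.9 in a two-sided exact permutation test, for which the smallest possible p is 0.1 with 3 libraries a group. Neither H2-K1 alone nor H2-D1 alone set against B2m separated the groups (exact permutation p = 0.6 and 0.8).

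Tapbp encodes tapasin, which bridges the empty class I molecule to TAP and edits its peptide, and lies at chr17:33915899-33929292. The WT libraries held 19601, 23560 and 20826 normalized counts, and the hnRNPL-deficient libraries held 15629, 17289 and 14013. The groups did not overlap, although the gap between the lowest WT library and the highest hnRNPL-deficient library was narrower than for H2-K1 or B2m. The mean fell from 21329 ± 2027 to 15644 ± 1638 (SD, n = 3 each), 26.7% below WT, with a log2 fold change of -0.45, a 95% interval of -0.71 to -0.19 and an adjusted p from limma of 0.0409. This is below 1.5-fold. The adjusted p from limma rose to 0.151 without WT replicate 2, 0.117 without WT replicate 3, and 0.101 without hnRNPL-deficient replicate 1 or without both replicate 1 libraries. It was 0.105 without the trend in limma and 0.144 after quantile normalization, where the log2 fold change was -0.29.

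Tap1 and Tap2 encode the 2 subunits of the peptide transporter and lie next to each other, at chr17:34187553-34197225 and chr17:34203527-34216321. Tap1 stood at 6658, 8504 and 8209 normalized counts in WT and at 6662, 7295 and 6527 in hnRNPL-deficient libraries. Tap2 stood at 2416, 3461 and 3003 in WT and at 2064, 2736 and 1975 in hnRNPL-deficient libraries. For both, the WT replicate 1 library was the lowest of its group and lay among the hnRNPL-deficient values, in contrast to the heavy chains and B2m, where it was the highest. The log2 difference was -0.18 for Tap1 (95% interval -0.45 to 0.08, adjusted p from limma 0.347) and -0.39 for Tap2 (95% interval -0.78 to -0.0048, adjusted p from limma 0.177), and neither passed. The Tap1 to Tap2 ratio was 2.65 ± 0.17 in WT and 3.07 ± 0.35 in hnRNPL-deficient libraries (SD, n = 3 each), with overlap between the groups and an exact permutation p of 0.3.

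Nlrc5, at chr8:94434356-94527272, encodes the class I transactivator and had the lowest level per length of the 8 genes. Its WT libraries held 3588, 5515 and 5335 normalized counts, and its hnRNPL-deficient libraries held 2886, 4378 and 3765. Replicate 1 was the lowest of each genotype, and the groups overlapped. The means of 4813 ± 1064 and 3676 ± 750 (SD, n = 3 each) differed by -0.38 on the log2 scale, with a 95% interval of -0.84 to 0.07 and an adjusted p from limma of 0.258. The difference was not called here, and the interval leaves room for a fall larger than that of H2-K1 as well as for no fall. Without WT replicate 1 it was -0.58 with an adjusted p from limma of 0.0769, still under 1.5-fold, and without hnRNPL-deficient replicate 1 it was -0.22.

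Set against Ciita, its class II counterpart, Nlrc5 did separate the genotypes within libraries. The Nlrc5 to Ciita ratio was 0.318, 0.345 and 0.340 in WT and 0.229, 0.280 and 0.280 in hnRNPL-deficient libraries. All 3 hnRNPL-deficient values lay below all 3 WT values, at means of 0.263 ± 0.030 and 0.334 ± 0.014 (SD, n = 3 each). The log2 difference was -0.35 with an exact permutation p of 0.1, the smallest this design allows. Ciita itself differed by -0.03 on the log2 scale with an adjusted p from limma of 0.915, and its sign turned positive under other scalings.

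Erap1 encodes the aminopeptidase that trims peptides in the endoplasmic reticulum and lies at chr13:74639568-74693201. It stood at 13605, 12141 and 10616 normalized counts in WT and at 11094, 9919 and 10232 in hnRNPL-deficient libraries. The lowest WT library lay inside the hnRNPL-deficient range. The log2 difference was -0.21, with a 95% interval of -0.47 to 0.04 and an adjusted p from limma of 0.265, and Erap1 was not called.

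**Figure D3:**
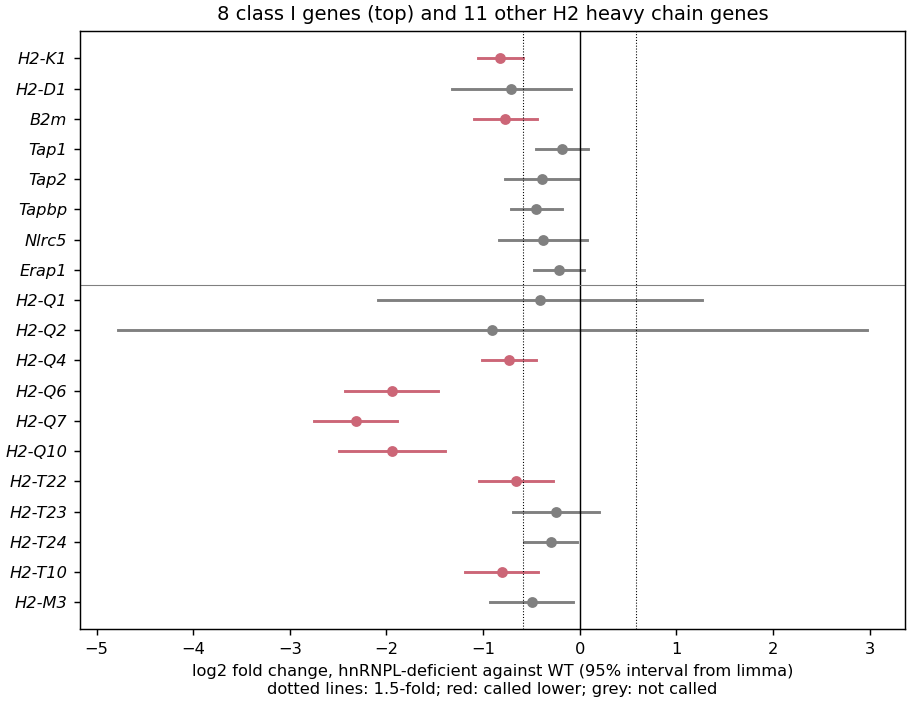
Log2 fold change of hnRNPL-deficient against WT B cells with 95% intervals from limma, for the 8 genes above the grey line and 11 other H2 heavy chain genes under it. Red marks genes called lower, grey marks genes not called and dotted lines mark 1.5-fold; H2-K1 and B2m are red at -0.82 and -0.77, and H2-Q7 lies furthest left at -2.32.

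The 8 genes differed widely in level. Per kilobase of annotated exon, the WT means were 131580 normalized counts for B2m, 6940 for H2-K1, 6124 for H2-D1, 5879 for Tapbp, 1665 for Erap1, 1423 for Tap1, 783 for Tap2 and 567 for Nlrc5. B2m was 19.0-fold above H2-K1, and its lowest library was far above the highest H2-K1 library. H2-D1 and Tapbp overlapped in range, as did H2-K1 and H2-D1, Erap1 and Tap1, and Tap2 and Nlrc5. In hnRNPL-deficient B cells the order was the same except that Tapbp, at 4312, stood ahead of H2-K1 at 3922 and H2-D1 at 3901, with overlapping ranges. Averaged over the 8 genes, the hnRNPL-deficient libraries lay 0.43, 0.41 and 0.63 below the WT mean on the log2 scale, and the WT libraries between -0.04 and 0.05 of it. hnRNPL-deficient replicate 3, the shallowest library, was the lowest of all 6 for 5 of the 8 genes.

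Wider changes than those of the 8 genes were seen among the nonclassical H2 heavy chain genes. Beside H2-K1 and H2-D1, 18 were listed, 17 were in the table and 11 were tested, and 6 of the 11 were called lower and none higher, where 4.08% of all tested genes were called lower. Their median log2 fold change was -0.73. With H2-K1 and H2-D1 the family came to 7 of 13 called lower. All 13 had a lower mean (12 of 13 in edgeR), where 52.7% of all tested genes did. H2-Q7 and H2-Q6 encode Qa-2, a nonclassical class I molecule. H2-Q7 stood at 2030, 2816 and 3245 normalized counts in WT and at 503, 621 and 476 in hnRNPL-deficient libraries. It thus kept 19.8% of its WT level. The log2 fold change was -2.32, with an adjusted p from limma of 3.35e-04. H2-Q6 stood at 1632, 2419 and 2560 in WT and at 576, 682 and 447 in hnRNPL-deficient libraries, a log2 fold change of -1.95 with an adjusted p from limma of 0.00136.

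The Qa-2 genes were also lower relative to the classical heavy chain of the same library. The summed H2-Q6 and H2-Q7 level was 0.164, 0.269 and 0.299 of H2-K1 in WT and 0.0871, 0.114 and 0.0855 in hnRNPL-deficient libraries. The groups did not overlap, the log2 difference was -1.32 and the exact permutation p was 0.1, the smallest possible. H2-Q6 and H2-Q7 were chosen for this ratio after their falls had been seen, so the separation and its p add no separate support. As a share of all H2 heavy chain counts, H2-Q7 made up 5.22% ± 1.45 in WT and 1.78% ± 0.31 in hnRNPL-deficient libraries (SD, n = 3 each), while H2-K1 made up 39.0% ± 1.1 and 38.3% ± 4.3.

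The remaining called heavy chain genes were H2-Q10 (log2 fold change -1.94), H2-T10 (-0.81), H2-Q4 (-0.73) and H2-T22 (-0.66). H2-T22 lost its call when replicate 2 or 3 of WT or replicate 1 or 3 of the hnRNPL-deficient libraries was left out, with values of -0.56 to -0.62. The genes not called included H2-T23, which encodes Qa-1, a ligand of NK cell receptors, at 2320, 3775 and 3353 in WT and 2425, 3182 and 2296 in hnRNPL-deficient libraries, and H2-M3, which presents formylated peptides, at a log2 difference of -0.50 and an adjusted p from limma of 0.127. H2-M3 was called without WT replicate 1 (-0.69), without both replicate 1 libraries (-0.68) and in DESeq2 on the reads of 5 libraries. H2-Q1 and H2-Q2, the genes high in the replicate 1 libraries, were also not called. Without both replicate 1 libraries 9 of the heavy chain genes were called lower, where that fit called 520 of 17635 tested genes lower.

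Reads can be exchanged between near-identical members of this family. Of all 100-base stretches of the annotated transcripts, 12.0% of those of H2-Q7, 10.8% of H2-Q6 and 8.01% of H2-Q10 also occur in another gene, most often in one of these same genes, so their separate values are less certain than their joint fall. The same holds for H2-T22 (8.86%) and H2-T10 (7.06%), which share mostly with each other. The 8 genes themselves were little affected, with 0.957% for H2-K1, shared with H2-Q10, and 3.59% for H2-D1, mostly shared with H2-Q1. It was 0.0775% for Tapbp, and 0 for the other 5.

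Class I-like genes outside the H2 family were called in both directions, with 2 higher and 1 lower among 4 tested, where 7.28% of all tested genes were called higher and 4.08% lower. Cd1d1, which presents lipids to NKT cells, rose from 52.2, 44.1 and 78.8 normalized counts in WT to 209, 143 and 182 in hnRNPL-deficient libraries, a log2 fold change of 1.62 with an adjusted p from limma of 0.00943. Mr1, which presents microbial vitamin B metabolites to MAIT cells, was called higher at 0.60 with an adjusted p from limma of 0.0517, but lost the call under 6 of 17 alternatives, 4 of them leaving out replicate 2 or 3 of WT or replicate 1 or 3 of the hnRNPL-deficient libraries and 1 leaving out both replicate 1 libraries (0.54, adjusted p from limma 0.18). Fcgrt, the neonatal Fc receptor heavy chain, was called lower at a level of few reads, from 22, 16.4 and 17.6 normalized counts to 3.61, 5.05 and 0. Hfe was not called.

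**Figure D4:**
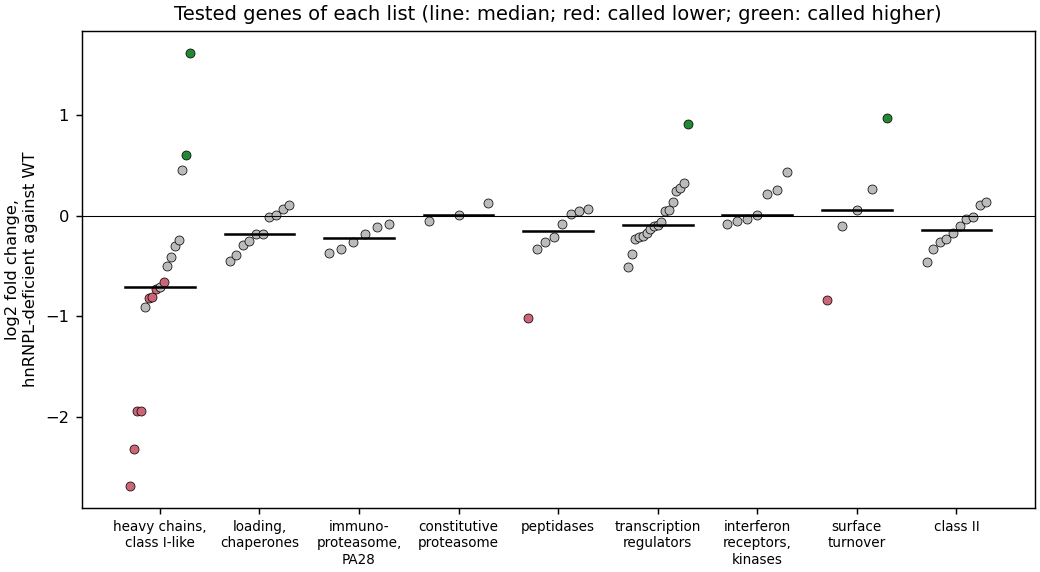
Log2 fold change of every tested gene in 9 lists of antigen presentation genes, with a black line at each list's median. Red points were called lower, green higher and grey not called; most red points lie in the heavy chain list, where the median is -0.71, and the medians of the other lists lie between -0.22 and 0.06 with at most 1 called gene in each direction.

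Outside the 8 genes, the heavy chains and the class I-like genes, the class I lists held 51 tested genes. Of these, 2 were called lower and 2 higher (3.92% each, against 4.08% and 7.28% of all tested genes), and the median log2 fold change was -0.05. In the list of peptide loading genes and chaperones, which includes Tap1, Tap2 and Tapbp, none of 10 was called, and only Tapbp passed the p threshold. Calr (calreticulin), which holds the empty heavy chain in the loading complex, differed by -0.25 with an adjusted p from limma of 0.196, Pdia3 (ERp57) by -0.18, Canx (calnexin) by 0.01, and Tapbpl (TAPBPR, a second peptide editor) by 0.11. The sign for Canx turned when single libraries were left out.

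The proteasome subunits were tested as a list of 6 immunoproteasome and PA28 genes and a list of 3 constitutive genes. None of the 6 was called, where 4.08% of all tested genes were called lower and 7.28% higher. All 6 had a lower mean (5 of 6 after quantile normalization), where 52.7% of all tested genes did. The log2 differences were -0.33 for Psmb8, -0.26 for Psmb9, -0.12 for Psmb10, -0.08 for Psme1, -0.18 for Psme2 and -0.37 for Psme3. Only Psme3, a subunit of the nuclear PA28 regulator, passed the p threshold (adjusted p from limma 0.0705), and it did not when any 1 library was left out. None of the 3 constitutive genes passed either, with log2 differences of -0.05 for Psmb5, 0.13 for Psmb6 and 0.005 for Psmb7. Immunoproteasome subunits favour peptides that class I can bind. Within libraries their sum was lower relative to the sum of the constitutive subunits they replace. The ratio of summed Psmb8, Psmb9 and Psmb10 to summed Psmb5, Psmb6 and Psmb7 was 0.566, 0.625 and 0.634 in WT and 0.472, 0.524 and 0.460 in hnRNPL-deficient libraries. The groups did not overlap, the log2 difference was -0.33, and the exact permutation p was 0.1, the smallest possible.

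**Figure D5:**
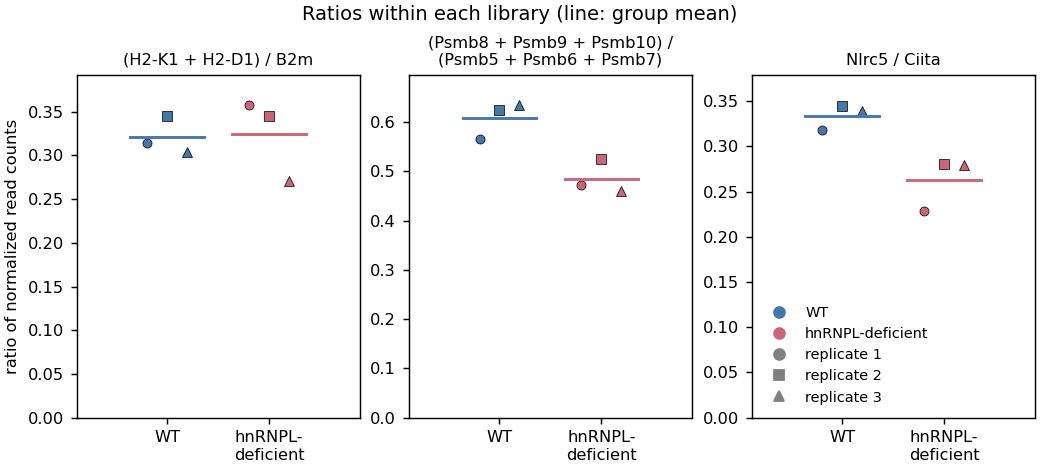
Ratios of normalized read counts within each library, for heavy chains to B2m, immunoproteasome to constitutive subunits, and Nlrc5 to Ciita. Points are libraries, lines are group means and axes start at 0; the groups overlap in the first panel (means 0.321 and 0.325) and separate in the other panels (0.608 and 0.485, 0.334 and 0.263).

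Among 8 peptidases, Thop1 was the only called gene, or 12.5% called lower against 4.08% of all tested genes. Thop1 encodes thimet oligopeptidase, which destroys peptides in the cytosol. It fell from 2143, 2426 and 2241 normalized counts in WT to 1137, 1307 and 939 in hnRNPL-deficient libraries, a log2 fold change of -1.02 with an adjusted p from limma of 0.00353. Erap1 belongs to the same list and, as given above, did not pass.

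Of 17 transcription regulators of class I genes, Nlrc5 included, 1 was called, in the upward direction, or 5.88% against 7.28% of all tested genes. Rfxank, a subunit of the RFX complex through which NLRC5 and CIITA reach MHC promoters, rose from 294, 490 and 416 to 715, 829 and 678, a log2 fold change of 0.91 with an adjusted p from limma of 0.0237. Its partner Rfx5 differed by -0.17 with an adjusted p from limma of 0.267. Rela, the NF-κB subunit p65, passed the p threshold at -0.51 (adjusted p from limma 0.0993) with overlap between the groups. It did not pass when replicate 2 or 3 of WT or replicate 1 or 3 of the hnRNPL-deficient libraries was left out (-0.38 to -0.49, adjusted p from limma up to 0.247), nor at equal totals, after quantile normalization or without both replicate 1 libraries. Rela was called lower without WT replicate 1 (-0.66) and without hnRNPL-deficient replicate 2 (-0.67). Both edgeR and DESeq2, which also left out hnRNPL-deficient replicate 2, called it lower as well. Irf1, which carries interferon signals to class I genes, was not called, at 0.06, and its sign turned under 4 alternatives.

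No interferon receptor gene passed, and of 7 receptor and kinase genes only Jak2 did, where 10.0% of all tested genes passed upward. Jak2 rose by 0.43 on the log2 scale, under 1.5-fold, with an adjusted p from limma of 0.0190. Of 5 tested genes that act on class I turnover at the surface, 1 was called higher and 1 lower. That is 20% each, where 7.28% of all tested genes were called higher and 4.08% lower. Susd6, which encodes an adaptor that takes class I to degradation, rose from 1278, 1471 and 1416 to 2624, 2885 and 2662. Its log2 fold change was 0.97 with an adjusted p from limma of 0.00130. Tmem127, its partner, passed the p threshold at 0.27, though not with any 1 library left out. March9, a ubiquitin ligase, was called lower at -0.84 (adjusted p from limma 0.0689) but lost the call under 7 of 17 alternatives. Among these were the loss of any library other than hnRNPL-deficient replicate 2 and of both replicate 1 libraries (-0.74, adjusted p from limma 0.184). The other 2 tested genes of the list did not pass, Wwp2 at -0.10 and H13 at 0.06 (adjusted p from limma 0.649 and 0.820).

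Class II presentation gave no called gene among 10, where 4.08% of all tested genes were called lower and 7.28% higher. The median log2 fold change was -0.14. H2-Aa, which encodes the alpha chain of I-A, passed the p threshold at -0.33 (adjusted p from limma 0.070), but not after quantile normalization, where it was -0.065 (adjusted p from limma 0.719), nor without replicate 2 or 3 of WT or replicate 1 or 2 of the hnRNPL-deficient libraries (adjusted p from limma up to 0.212).

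The genes that lie among the class I genes on chromosome 17 were counted as well. Between the start of Tapbp and the end of H2-D1, at chr17:33915899-35267499, 82 genes other than the 8 were tested. Of these, 3 were called lower, or 3.66% against 4.08% of all tested genes, and 1 was called higher, or 1.22% against 7.28%. The lower genes were Col11a2 (log2 fold change -3.25), Lta, which encodes lymphotoxin alpha (-0.996), and Vars, a tRNA synthetase (-0.72), and the higher gene was Ppt2 (1.66). Vars lost its call under 6 of 17 alternatives, among them quantile normalization and the loss of replicate 2 or 3 of WT or replicate 1 or 3 of the hnRNPL-deficient libraries.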

How the data were processed

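Per the labels and the methods of the study, poly(A) RNA was sequenced as 100-base paired reads, trimmed with fastp 0.23.1, aligned to mm10 with STAR 2.7.9a and counted per gene and strand with featureCounts on GENCODE vM23. The authors divided the counts by size factors from DESeq2 1.38.2, and the deposited values are these normalized counts, a signal that evens out depth but not transcript length. The deposited table also holds the authors' own comparison (log2 fold changes, their standard errors and test statistics as scores, p-values and adjusted p-values), which was not used.

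Values of the 6 libraries (3 WT, 3 hnRNPL-deficient, grouped by label) were tested as log2(normalized count + 1) with limma 3.58.1 (R 4.3.3, with a trend of variance on mean), for 17640 genes whose mean reached 10 normalized counts, and p-values were adjusted over all of them by Benjamini-Hochberg. Adding 1 understates changes of low genes. Ratios were compared by two-sided exact permutation tests. Reads were recovered as whole multiples (within 0.02, 100% of values) in 5 libraries, and edgeR 4.0.16 and DESeq2 1.42.0 were run on these as alternatives. The 6th library, hnRNPL-deficient replicate 2, has a size factor close to 1, and although its values were whole multiples too, an independent check could not separate them, so it was left out. The scripts were tested on simulated data.

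The 8 genes and all gene lists were chosen with earlier results of these data known. Besides the 8, genes were named when they passed adjusted p under 0.1 in a list (the 4 largest per direction where more than 5 did), when they have a direct role in presentation, or when called between the outermost chromosome 17 members. H2-D1 to B2m, Qa-2 to H2-K1 and similar extra ratios, the genes high in replicate 1, H2-Eb1, Tap1 to Tap2 and the sequences were chosen after values were seen. The paper describes this RNA-seq as 3 mice in each group, in a figure whose results were compiled from separate experiments. The labels do not tie replicates to named animals or to an experiment, so p-values measure the spread between these samples. Promoter sequences came from RefSeq GRCm38.p6. Gene positions and lengths came from GENCODE vM21 on GRCm38, which named 17615 of the tested genes.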

Additional observations from a re-analysis of the deposited data

How the results depend on the processing

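For the 8 genes, 136 log2 fold changes were computed under 17 alternatives. None changed sign. By the rule that joins p and fold, 132 kept their call or their lack of one, 1 lost a call and 3 gained one. The p threshold alone was crossed more often. Under the alternatives 2 to 7 members had an adjusted p under 0.1 from the test used, against 3 in the main fit. With quantile normalization 1 member was called, as B2m fell to -0.57. With the replicate number as a block, 7 members had an adjusted p under 0.1 in limma and 3 were called, H2-D1 being added at an adjusted p of 0.00479. The block raised calls among all tested genes too, to 2773 from 2003, with 1018 called lower where the main fit had 719. Same-numbered libraries of the 2 genotypes deviated together with correlations of 0.43, 0.32 and 0.07, WT replicate 3 went best with hnRNPL-deficient replicate 2 (0.31), and the labels do not say that a number marks a shared animal or day, so the block is not a paired design.

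Leaving out 1 library at a time gave 2 to 5 members with an adjusted p under 0.1 in limma, the 5 being without WT replicate 1. Such fits called 1333 to 1801 genes, the fewest without WT replicate 3, where the fit of all 6 libraries called 2003. How many of the same genes were called in both was not counted. The alternative without both replicate 1 libraries, chosen after seeing the data, called 1393 genes. Among the other named genes, 13 of 639 values changed sign, all in 5 genes that were not called. They were Psme1 (0.049 with quantile normalization), Irf1 (-0.017 without both replicate 1 libraries, -0.011 in DESeq2) and Ciita (0.024 at equal totals, 0.11 with quantile normalization), and, when 1 library was left out, Canx (-0.066 to 0.075), Psmb10 (-0.28 to 0.068), Irf1 (-0.055 to 0.14) and Ciita (-0.20 to 0.057). The cause was not tested. On the reads of 5 libraries edgeR called 1144 genes higher and 578 lower, and DESeq2 1180 and 721. Depth does not limit the 8 genes, whose lowest value was 1975 normalized counts, while 3 libraries a group limit every interval and keep the exact permutation p at or above 0.1.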
